A study of Mus musculus with 3 samples.

Results

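The AP-1 and BATF factors examined here are 10 basic leucine zipper transcription factor genes: the Fos family genes Fos, Fosb, Fosl1 and Fosl2, the Jun family genes Jun, Junb and Jund, and the genes Batf, Batf3 and Atf3. They were found by gene symbol, and each symbol had 1 row in each table; they make up 10 of 33605 measured symbols. RNA came from splenic B cells of C57BL/6 mice, isolated as lacking CD43, a surface protein of activated B cells and of most other leukocytes. All cells were kept for 3 days with lipopolysaccharide, which activates Toll-like receptor signalling, and interleukin-4, a cytokine of helper T cells. The groups were JQ1+ at 80 nM, flavopiridol at 30 nM and DMSO, the vehicle, with 1 library each. JQ1 is a small molecule that blocks the acetyl-lysine pocket of BET bromodomain proteins, and flavopiridol is an inhibitor of cyclin-dependent kinases, Cdk9 among them. How many mice were pooled, and whether the cultures shared mice, is not given in the sources used here.

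Basic leucine zipper proteins bind DNA as dimers. Fos family proteins cannot pair with themselves and bind with a Jun partner, whereas Jun proteins can also pair with each other. Batf and Batf3 consist of little more than the zipper, lack a transactivation domain of their own, pair with Jun proteins and, at composite sites, recruit Irf4 or Irf8. In mice, Batf is needed for B cells to switch antibody class and Batf3 for the development of cross-presenting dendritic cells. Several of these genes, Fos and Jun above all, are induced within minutes of a stimulus and their transcripts decay fast. The values here describe a state after days of culture and drug, so early and late responses to a drug cannot be told apart.

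Values are RPKM, reads per gene scaled to gene length and library size, as deposited. The summed counts were 51247080 for JQ1+, 50184508 for flavopiridol and 59786847 for DMSO. Each group is 1 library, so differences have no check by replicates and carry no p-value. The 95% intervals in the text cover counting error only. A change is log2((RPKM + 1)/(RPKM + 1)), and the words rose and fell are kept for sizes of at least 1, a 2-fold difference. Folds, ratios and their intervals are of RPKM without the added 1, whereas calls of 2-fold rest on the change. For low genes such as Fosl1, Fosl2 and Batf3 the fold is therefore larger than the change, and can pass 2-fold where the change does not. The tested genes are the 14790 whose mean over the 3 libraries reached 1 RPKM, all 10 AP-1 and BATF genes among them. In bulk RNA, fewer cells of a type and less of a transcript per cell cannot be told apart. The B cell markers Cd79a, Cd79b, Ms4a1, Pax5 and Cd22 all passed that minimum. Cd79b, a part of the B cell receptor, had 2127 RPKM in JQ1+, 1908 in flavopiridol and 1545 in DMSO, and Pax5, the B cell identity factor, had 168, 164 and 137 RPKM in the same libraries. Cd22, an inhibitory receptor, had 294 RPKM in JQ1+, 277 in flavopiridol and 548 in DMSO, and Cd79a, the partner of Cd79b, had 507, 266 and 477 RPKM, so the markers did not move one way. Ms4a1 alone of these markers passed 2-fold against DMSO, higher in JQ1+. Summed levels of 6 T cell markers were 25.6, 16.6 and 22.6 RPKM in JQ1+, flavopiridol and DMSO, mostly from Lck, and those of 3 natural killer markers were 0.786, 0.324 and 0.108 RPKM in the same order. Of 6 myeloid marker symbols 5 were in the tables, the other being a newer symbol of Emr1. They summed to 7.48 RPKM in JQ1+, 14.0 in flavopiridol and 7.88 in DMSO, and Emr1 had 0.801, 9.47 and 0.922 RPKM.

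The levels fell into a high, a middle and a low tier. Batf, which partners Jun proteins and Irf4, had 278 RPKM in JQ1+, 579 in flavopiridol and 405 in DMSO. Jund, a Jun protein associated with slow growth and survival, had 432 RPKM in JQ1+, 328 in flavopiridol and 412 in DMSO. Junb, a Jun protein known in lymphocytes as a partner of Batf, had 251 RPKM in JQ1+, 346 in flavopiridol and 397 in DMSO. These 3 genes held the top ranks of the 10 in every library, above the 94th percentile of the tested genes. In DMSO the counting intervals of neighbours in this order overlapped, so no order could be read there; Batf stood alone at the top in flavopiridol and Jund in JQ1+. Jun, the founding member of its family, had 58.3 RPKM in JQ1+, 60.04 in flavopiridol and 61.2 in DMSO, the steadiest level of the 10. Fos, the founding member of the other family, had 62.5 RPKM in JQ1+, 38.1 in flavopiridol and 32.5 in DMSO. Fos was the seventh highest of the 10 in DMSO and stood level with Jun in JQ1+, where their intervals overlapped. The remaining Fos family genes were low. Fosb, a stimulus-induced Fos protein, had 8.70 RPKM in JQ1+, 4.55 in flavopiridol and 4.92 in DMSO. Fosl1, the gene of Fra-1, which lacks the strong activation domain of Fos, had 1.09 RPKM in JQ1+, 2.32 in flavopiridol and 1.45 in DMSO, from 35, 68 and 52 counts. The counting intervals of these 3 levels overlapped one another, and the ratio between the drugs, 2.13-fold lower in JQ1+, had an interval of 1.03 to 4.63 that just left out no difference.

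**Figure D1:**
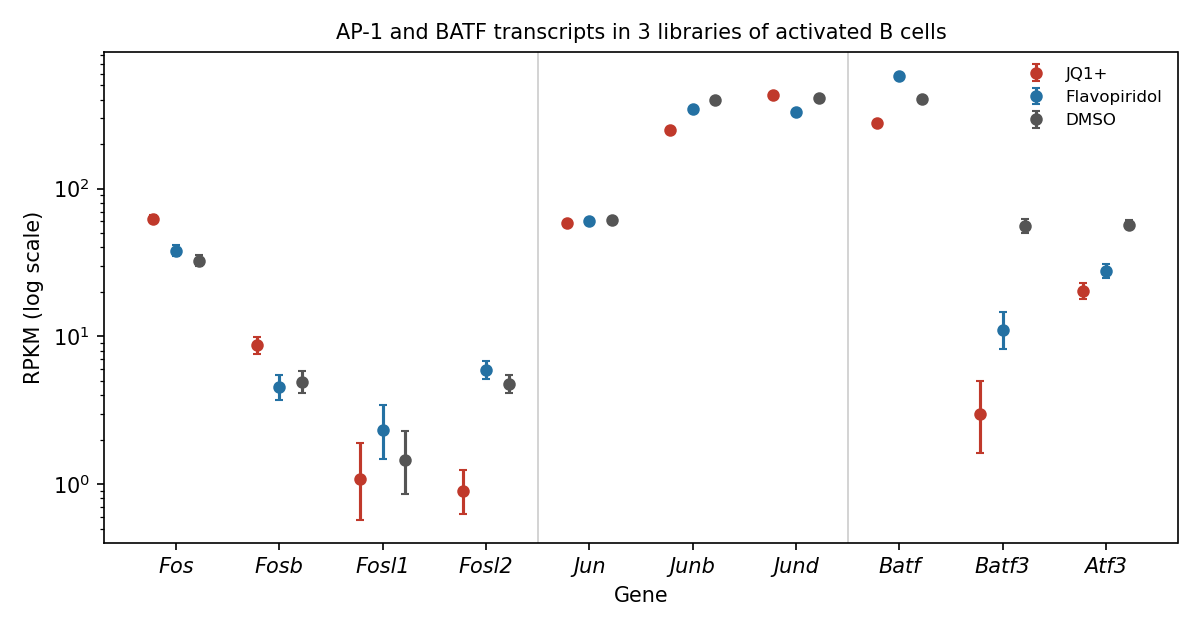
RPKM of the 10 genes (horizontal axis) on a log scale (vertical axis) in the JQ1+, flavopiridol and DMSO libraries; bars are 95% counting intervals and vertical lines separate the Fos, Jun and Batf with Atf3 groups. Batf3 and Atf3 stood at 55.9 and 57.0 RPKM in DMSO and lower in both drug libraries. Fosl2 was lower in JQ1+ than in the other libraries.

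Summed over the 10 genes, the level was 1116 RPKM in JQ1+, 1402 in flavopiridol and 1432 in DMSO. The Jun family made up 66.5% of that sum in JQ1+, 52.3% in flavopiridol and 60.8% in DMSO. Batf alone gave 24.9%, 41.3% and 28.3%, and the whole Fos family 6.55%, 3.63% and 3.05%. Jun family and Batf transcripts thus far exceeded those of the Fos family in all 3 libraries. Within the Fos family, Fosl2 made up 1.23% of the RPKM in JQ1+, 11.6% in flavopiridol and 10.9% in DMSO. The ratio of Batf to Batf3 in RPKM was 93.2 in JQ1+, 52.2 in flavopiridol and 7.24 in DMSO. That of Junb to Jund was 0.580 in JQ1+, 1.06 in flavopiridol and 0.962 in DMSO. These shares describe RNA, not protein or dimers.

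**Figure D2:**
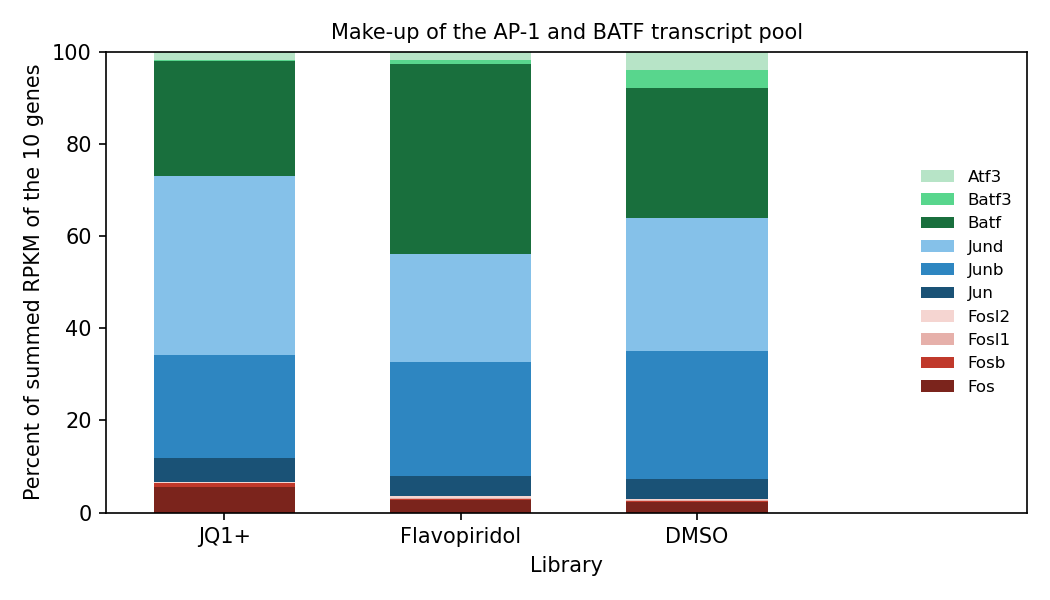
Share of each gene in the summed RPKM of the 10 genes (percent, stacked from 0) in the JQ1+, flavopiridol and DMSO libraries. Batf gave 41.3% in flavopiridol, against 28.3% in DMSO, and Jund 38.7% in JQ1+, against 28.8% in DMSO.

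Promoters are shown for the 3 genes that fell with JQ1+ and for Fos, which had the most positive change of the 10 with that drug. They run from 250 bases before to 50 bases after the start in RefSeq, on build GRCm38.p6, 5′ to 3′ along the gene. Capitals mark matches to the motifs searched.
Batf3, chr1:191098164-191098463, plus strand: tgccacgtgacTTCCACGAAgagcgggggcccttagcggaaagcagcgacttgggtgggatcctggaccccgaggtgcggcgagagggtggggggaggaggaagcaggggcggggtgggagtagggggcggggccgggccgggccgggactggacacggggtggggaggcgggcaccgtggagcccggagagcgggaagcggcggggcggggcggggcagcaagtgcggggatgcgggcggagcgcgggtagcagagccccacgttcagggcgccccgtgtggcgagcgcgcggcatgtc
Atf3, chr1:191183284-191183583, minus strand: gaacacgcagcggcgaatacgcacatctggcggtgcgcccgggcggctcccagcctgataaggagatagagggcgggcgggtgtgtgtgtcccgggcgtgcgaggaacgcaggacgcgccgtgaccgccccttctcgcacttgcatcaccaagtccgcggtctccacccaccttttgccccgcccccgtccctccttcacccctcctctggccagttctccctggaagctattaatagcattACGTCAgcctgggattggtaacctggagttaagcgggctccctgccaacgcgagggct
Fosl2, chr5:32136222-32136521, plus strand: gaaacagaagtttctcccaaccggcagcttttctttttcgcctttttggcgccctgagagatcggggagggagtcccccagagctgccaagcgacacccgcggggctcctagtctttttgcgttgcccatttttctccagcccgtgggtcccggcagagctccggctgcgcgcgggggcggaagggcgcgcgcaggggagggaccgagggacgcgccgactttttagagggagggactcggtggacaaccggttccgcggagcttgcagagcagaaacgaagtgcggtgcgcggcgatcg
Fos, chr12:85473640-85473939, plus strand: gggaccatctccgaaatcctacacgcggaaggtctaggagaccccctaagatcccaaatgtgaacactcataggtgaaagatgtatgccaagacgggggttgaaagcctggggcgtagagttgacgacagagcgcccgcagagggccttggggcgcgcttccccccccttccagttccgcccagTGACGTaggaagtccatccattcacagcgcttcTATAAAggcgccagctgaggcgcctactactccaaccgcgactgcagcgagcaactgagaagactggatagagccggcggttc
The motifs were sought on both strands in the promoters of the 9 members that RefSeq's table holds; Fosl1 was not among them. TGANTCA, which includes the TPA response element of Fos and Jun dimers, was in none of the 9 and in 7.81% of 32851 promoters. As N is any base, that share also counts strings other than the element. TGACGTCA, the cAMP response element, was in none and in 1.79%. Exact patterns were sought, so close variants such as TGACATCA in the Jun promoter were not counted. The CArG box, bound by serum response factor, was in none of the 9 (1.63% of all), and neither was the interferon response element (2.72%). These absences hold only for the 250 bases before and 50 bases after the start, as sites farther out were not searched. TTCNNNGAA, a STAT site, was in the Batf3 promoter only, as against 8.30% of all. TATAAA was in those of Fos and Junb, as against 13.6%. The TATAAA match began at -33 from the start in Fos and at the annotated start itself in Junb. TGACGT, the shared core of ATF and CREB sites, was added after the sequences were seen; it was in the promoters of Fos, Batf and Atf3, and in 7.51% of all. In Atf3 it lies on the opposite strand. G and C made up 75.7% of the bases in the Batf3 promoter, 64.7% in those of Atf3 and Fosl2 and 58.7% in that of Fos. The median over all promoters was 52.7%. Fosb (68.3%) and Junb (65.3%), which did not fall with JQ1+, had higher shares than Atf3 and Fosl2. Jun lay between Fos and Fosl2, and Jund (46.7%) and Batf (49.7%) lay below the median. A high share was therefore not particular to the genes that fell. A match is a string of letters and was not tested as a binding site.

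With JQ1+ against DMSO, 3 of the 10 genes fell and none rose. Batf3 fell 18.7-fold, Fosl2, which encodes Fra-2, 5.29-fold and Atf3, a stress-induced factor that mostly represses, 2.81-fold. Over all tested genes 5.29% fell and 1.98% rose, 7.27% in all. The median change of the 10 was -0.38, and that of all tested genes was -0.08. Batf3 (ENSMUSG00000026630) had 2.98 RPKM in JQ1+ and 55.9 in DMSO, from 40 and 838 counts. The change was -3.84 (interval of the fold 11.0 to 34.6), and 19 of the 14790 genes, Batf3 included, lay at or below it. Fosl2 (ENSMUSG00000029135) had 0.897 RPKM in JQ1+ and 4.75 in DMSO, a change of -1.60 (interval of the fold 3.69 to 7.80). With a pseudocount of 5 in place of 1 the change of this low gene was -0.72 and the call was lost. At 4.75 RPKM in DMSO, an added 5 leaves no room for a change past 2-fold. That loss therefore does not measure how firm the difference is. Atf3 (ENSMUSG00000026628) had 20.3 RPKM in JQ1+ and 57.0 in DMSO, a change of -1.45 (interval of the fold 2.44 to 3.23).

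The other 7 genes stayed within 2-fold of DMSO in JQ1+. Fos stood 1.92 times as high in JQ1+ as in DMSO (interval 1.73 to 2.13), a change of 0.92 that lies under the threshold, and 375 of the tested genes had a change as high or higher. Rescaling all genes to protein-coding counts put Fos at 1.01, just past the threshold. Fosb stood 1.77 times as high (interval 1.42 to 2.21; change 0.71). Both Fos and Fosb thus lay on the upper side and Fosl2 on the lower side, within 1 family. Junb was 1.58-fold lower in JQ1+ (interval 1.51 to 1.65; change -0.66) and Batf 1.46-fold lower (interval 1.37 to 1.55; change -0.54). Jund (change 0.07), Jun (-0.07) and Fosl1 (-0.23) were close to DMSO, and the intervals of Jun and Fosl1 included no difference.

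**Figure D3:**
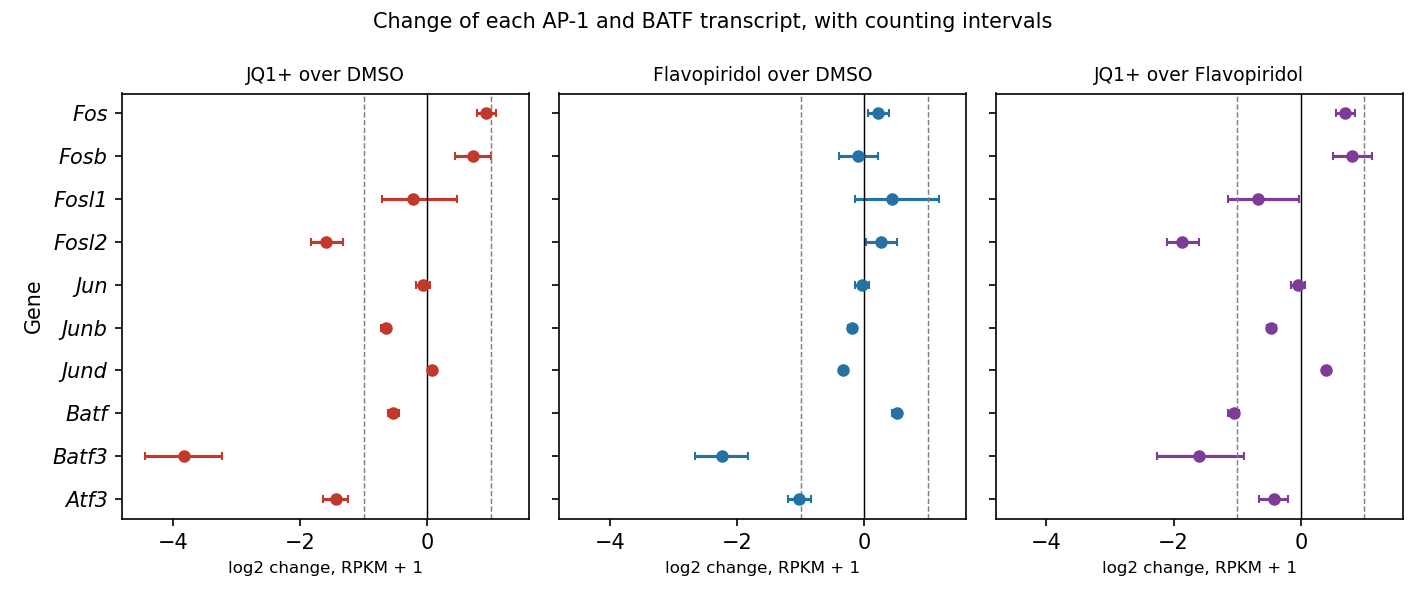
log2 change of each gene (RPKM + 1) in JQ1+ over DMSO, flavopiridol over DMSO and JQ1+ over flavopiridol; bars are 95% counting intervals, the solid line is no difference and dashed lines mark 2-fold. Batf3 lay at -3.84, -2.23 and -1.60, Atf3 at -1.45, -1.02 and -0.43, and Fosl2 at -1.60, 0.27 and -1.87.

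With flavopiridol against DMSO, 2 of the 10 genes fell, Batf3 and Atf3, and none rose. Over all tested genes 2.88% fell and 3.55% rose, 6.43% in all. The median change of the 10 was -0.06, against 0.13 for all tested genes. Batf3 had 11.1 RPKM in flavopiridol and 55.9 in DMSO, a 5.04-fold fall (interval 3.71 to 6.99; change -2.23). It was among the 49 most negative changes of all tested genes. Atf3 had 27.6 RPKM in flavopiridol and 57.0 in DMSO, a 2.06-fold fall (interval 1.81 to 2.35; change -1.02). That call lies at the threshold, and with a pseudocount of 5 the change was -0.93. The 2 drug comparisons share the DMSO library, so they are not independent of each other.

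The high-level genes moved little with flavopiridol. Batf stood 1.43 times as high in flavopiridol as in DMSO (change 0.52, interval of the change 0.44 to 0.59). Jund was 1.26-fold lower (interval 1.22 to 1.30; change -0.33) and Junb 1.15-fold lower (interval 1.10 to 1.20; change -0.20). Among the Fos genes, Fosl1 (0.44), Fosl2 (0.27), Fos (0.22) and Fosb (-0.09) had changes within 2-fold. Fosl2, at 5.91 RPKM in flavopiridol and 4.75 in DMSO, stayed within 2-fold with this drug. Jun had a change of -0.03.

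**Figure D4:**
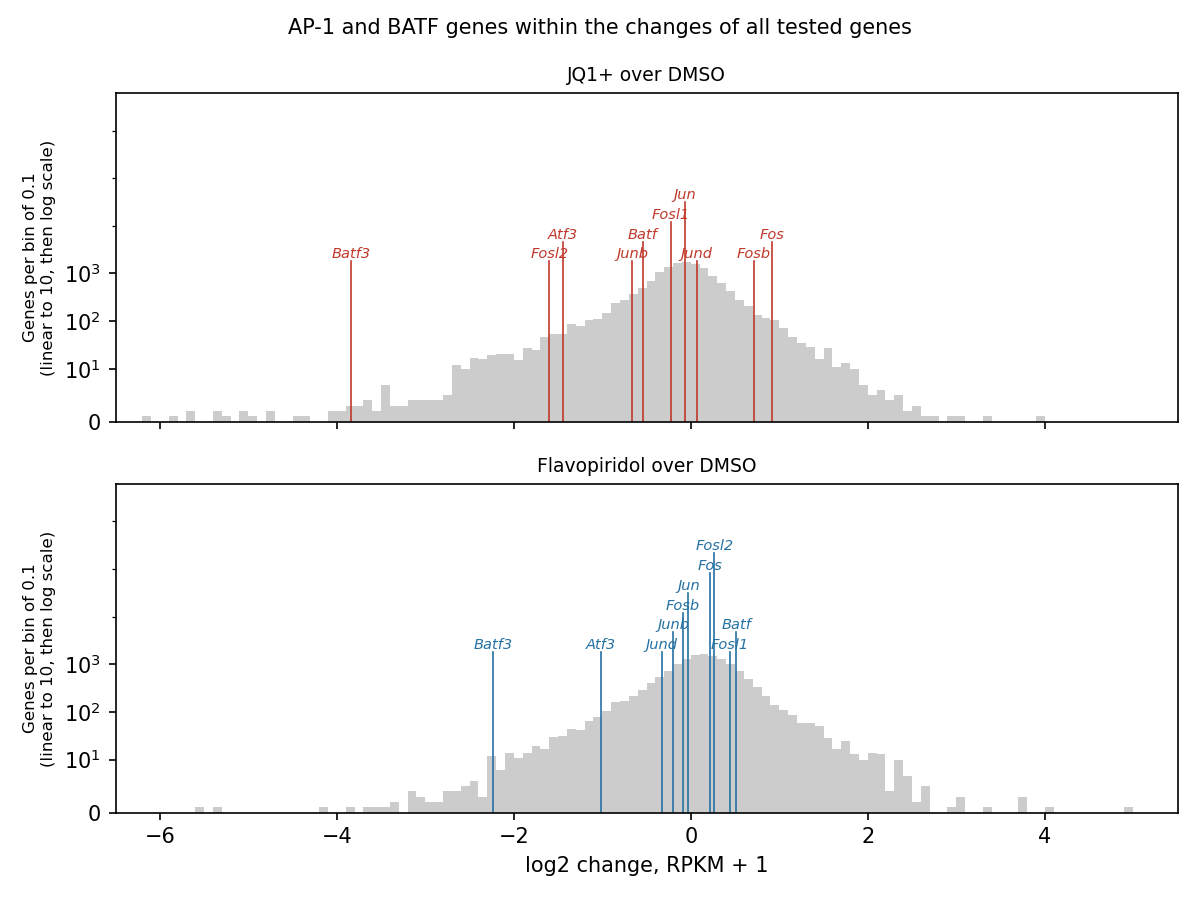
Number of the 14790 tested genes in each bin of log2 change (grey; vertical axis linear up to 10, then log) for JQ1+ over DMSO and flavopiridol over DMSO, with the 10 genes as labelled lines whose heights carry no value. Batf3 lay far in the lower tail with both drugs, at -3.84 and -2.23, and Fosl2 in the lower tail with JQ1+ only, at -1.60 and 0.27.

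Set side by side, JQ1+ was lower than flavopiridol for Fosl2, Batf3 and Batf, and no gene of the 10 was at least 2-fold higher. Over all tested genes 6.87% were lower and 2.06% higher in JQ1+, 8.92% in all. The median change of the 10 was -0.44, against -0.21 for all tested genes. Fosl2 was 6.59-fold lower in JQ1+ (interval 4.59 to 9.71; change -1.87) and Batf3 3.72-fold lower (interval 2.02 to 7.28; change -1.60). With a pseudocount of 5 the Fosl2 change was -0.89, within 2-fold. Batf, the third of these, differed 2.08-fold (interval 1.96 to 2.21; change -1.06), with JQ1+ the lower. Rescaling by the median of ratios shifted the median of all genes by 0.19 in this comparison, and Batf then had -0.84, within 2-fold. That rescaling shifted the median of all genes by 0.07 for JQ1+ and by -0.12 for flavopiridol against DMSO. Fosb (0.81), Fos (0.70) and Jund (0.40) had their higher level in JQ1+, within 2-fold, and Fosl1 (-0.67), Junb (-0.46), and Atf3 (-0.43) theirs in flavopiridol. Jun (-0.04) was near 0, and its sign turned with the rescaling (0.17), as it did with JQ1+ against DMSO, where its alternatives ran from -0.07 to 0.02. The drugs differ in target and dose, so these values are a description.

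The level of Batf3 was read beside dendritic cell markers, since dendritic cells express it. Of 7 such markers, 3 (Itgax, Clec9a and Siglech) were under 1 RPKM in every library, and Siglech was listed at 0 in flavopiridol and in DMSO. The 7 markers summed to 8.53 RPKM in JQ1+, 25.3 in flavopiridol and 34.6 in DMSO. Flt3, a growth factor receptor gene, gave most of it in flavopiridol and DMSO but not in JQ1+, with 2.55 RPKM in JQ1+, 14.6 in flavopiridol and 26.6 in DMSO (-2.96 and -0.82). Flt3 had the same order of libraries as Batf3, lowest in JQ1+ and highest in DMSO. The sum had that order too, but it includes Flt3 and is no separate likeness. Clec9a, which marks the Batf3-dependent subset, had 0.0320 RPKM in JQ1+, 0.0170 in flavopiridol and was listed at 0 in DMSO. Xcr1, a marker of the same subset, had 0.763 RPKM in JQ1+, 2.59 in flavopiridol and 0.918 in DMSO. Zbtb46, a factor of classical dendritic cells, had 4.36, 6.85 and 6.63 RPKM in the same libraries, and Itgae 0.776, 1.20 and 0.487. Unlike Batf3, the markers Xcr1, Zbtb46 and Itgae were each highest in flavopiridol. The part of such cells in the Batf3 result was not tested.

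Position on the chromosome was not part of how the genes were chosen. In the order of protein-coding genes in RefSeq, Batf3 and Atf3 lie near each other on chromosome 1 with Fam71a between them, and Fos, Jdp2 and Batf follow each other on chromosome 12. On chromosome 1, both members fell with both drugs, and Tatdn3, Nsl1 and Nenf, the tested genes around them, stayed within 2-fold of DMSO. Nsl1, a kinetochore component next to Batf3, had 18.6 RPKM in JQ1+, 21.2 in flavopiridol and 20.4 in DMSO. Fam71a had 0.119 RPKM in JQ1+, 0.887 in flavopiridol and 0.234 in DMSO, too low to be among the tested genes. Nenf, on the far side of Atf3, encodes a secreted haem-binding protein and was 1.96-fold lower in JQ1+ than in DMSO (interval 1.52 to 2.54; change -0.93), and at least 2-fold lower than in flavopiridol (change -1.04). On chromosome 12, Jdp2, a zipper protein that dimerises with Jun and represses AP-1 sites, fell with both drugs. It had 5.62 RPKM in JQ1+, 13.9 in flavopiridol and 33.2 in DMSO, changes of -2.37 and -1.20 against DMSO. Its neighbours on either side, Fos (0.92 and 0.22) and Batf (-0.54 and 0.52), stayed within 2-fold. Over the flanking genes of all 10 members, 14 non-members were in the tables and 11 passed the minimum level. Jdp2 was the single one of the 11 that fell with either drug against DMSO, and none rose. Over all tested genes 5.29% fell and 1.98% rose with JQ1+, and 2.88% fell and 3.55% rose with flavopiridol. With 11 genes, a count of 1 is near that background.

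**Figure D5:**
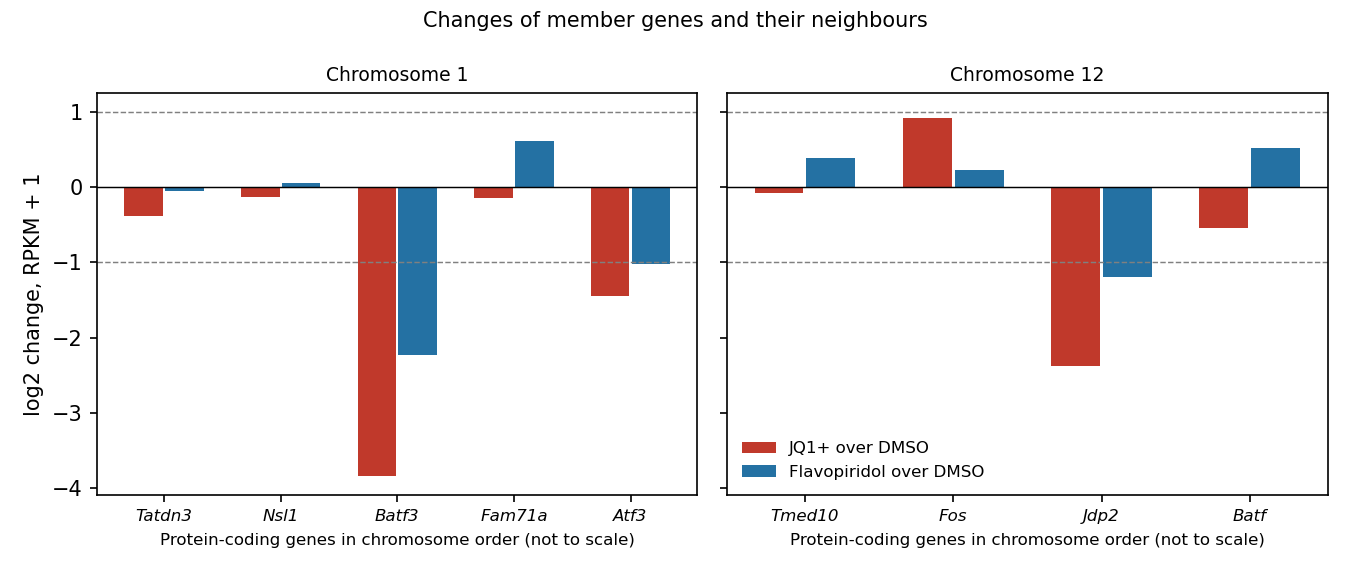
log2 change (RPKM + 1) in JQ1+ over DMSO and flavopiridol over DMSO for protein-coding genes in their order on chromosomes 1 and 12, with no scale of distance; dashed lines mark 2-fold. Batf3, Atf3 and Jdp2 fell with both drugs, and Nsl1, Fos and Batf between or beside them stayed within 2-fold.

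Annotated genes overlap some members on the opposite strand in GENCODE M21, and the use of strand in counting is not given in the sources used here. Gm11175 overlaps Jund and had 807 RPKM in JQ1+, 624 in flavopiridol and 752 in DMSO, so reads of the pair cannot be told apart. The antioxidant gene Prdx2 overlaps Junb and had 74.7, 119 and 90.0 RPKM in JQ1+, flavopiridol and DMSO. The change of Prdx2 was -0.27 with JQ1+ and 0.39 with flavopiridol, where Junb had -0.66 and -0.20. Overlaps of Jun and Fosl1 with Junos and Ccdc85b were not analysed here. Batf3, Batf, Fos, Fosb and Fosl2 had no overlapping gene, and the small gene in Atf3, Gm24748, had at most 1 count.

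Among 36 other basic leucine zipper genes, 29 passed the minimum level. With JQ1+ 3 of them fell and 1 rose, against 5.29% and 1.98% of all tested genes. Their median change was -0.11, near the -0.08 of all tested genes. The listed genes that fell were Jdp2, Cebpb and Atf5. Cebpb, a factor of inflammatory and acute-phase gene expression, had 8.04 RPKM in JQ1+ and 26.3 in DMSO (-1.59). Atf5, a target of the integrated stress response, had 32.8 and 82.9 RPKM (-1.31). Creb3l2, an endoplasmic reticulum factor linked to secretion, rose to 20.9 RPKM in JQ1+, against 8.18 in DMSO (1.25), a call that was lost with a pseudocount of 5. With a pseudocount of 0.1 the number that fell was 5. With flavopiridol Jdp2 alone of the 29 fell and none rose, against 2.88% and 3.55% of all tested genes. These counts are near that background. The median was 0.02, against 0.13 for all tested genes. The number that fell was 2 after rescaling by the median of ratios or to protein-coding counts, and 1 rose with a pseudocount of 0.1. Batf2, the remaining Batf gene, had 0.442 RPKM in JQ1+, 0.774 in flavopiridol and 1.05 in DMSO, under the minimum mean.

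Neither listed Irf partner of Batf, nor any tested gene of the MAP kinase cascades upstream of AP-1, passed 2-fold with either drug. Irf4, which binds composite sites with Batf, had 236 RPKM in JQ1+, 337 in flavopiridol and 235 in DMSO. Irf8, its relative, had 181, 182 and 198 RPKM, so both stayed within 2-fold; the median of the pair was -0.06 with JQ1+ and 0.19 with flavopiridol. Of 22 MAP kinase cascade genes 20 were tested, and none rose or fell with either drug; their medians were -0.02 with JQ1+ and -0.06 with flavopiridol, against -0.08 and 0.13 for all tested genes. The share of all tested genes past 2-fold was 7.27% and 6.43%, so a count of 0 in 20 is near that background. The most negative change with both drugs was in Mapk3, the ERK1 gene, with changes of -0.74 and -0.84. Braf, an upstream kinase of ERK, had -0.60 and -0.12, Map2k6, an activator of p38, -0.56 and -0.32, and Map3k1, upstream of JNK, 0.52 and -0.12.

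Of 9 factors that bind the Fos and Jun promoters, 1 fell with JQ1+ and none changed 2-fold with flavopiridol. Their medians were -0.11 and -0.03, against -0.08 and 0.13 for all tested genes. The one that fell was Mef2c, a MADS-box factor of B cells, with 174 RPKM in JQ1+, 369 in flavopiridol and 368 in DMSO (-1.08 with JQ1+), and its call was lost after rescaling to protein-coding counts. Its relative Mef2a (-0.50), Srf, the serum response factor (-0.40), and its coactivator Mkl1 (-0.11) had changes within 2-fold with JQ1+. None of 6 genes for proteins that bind AU-rich transcripts such as that of Fos changed 2-fold with either drug, with medians of -0.25 with JQ1+ and -0.07 with flavopiridol. Of these Zfp36, which promotes decay of such transcripts, had 189.7 RPKM in JQ1+, 113 in flavopiridol and 144 in DMSO. Zfp36l2 (-0.65 and -0.24), Zfp36l1 (-0.40 and 0.16) and Hnrnpd (-0.27 and -0.32) were also within 2-fold of DMSO. Of all tested genes 7.27% passed 2-fold with JQ1+ and 6.43% with flavopiridol. Counts of 0 or 1 in lists of 9 and 6 genes are near that background.

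Genes known as AP-1 targets in other cells went both ways with JQ1+. Of 22 listed genes 16 were tested, and with JQ1+ 6 rose and 3 fell, with a median of 0.43; of all tested genes 1.98% rose and 5.29% fell, with a median of -0.08. With flavopiridol 7 rose and none fell, with a median of 0.72; of all tested genes 3.55% rose and 2.88% fell, with a median of 0.13. The chemokine gene Ccl3 had 96.0 RPKM in JQ1+, 53.2 in flavopiridol and 8.62 in DMSO, and Il10, which encodes an anti-inflammatory cytokine, had 49.8, 32.4 and 5.26 RPKM. Both rose with both drugs. The metal-binding protein gene Mt2 rose with both drugs too, by 1.43 with JQ1+ and 3.32 with flavopiridol. The cytokine gene Il6 fell with JQ1+ (-3.78) but had -0.69, within 2-fold, with flavopiridol; between the drugs it was 11.4-fold lower in JQ1+ (interval 7.07 to 19.4). The list was drawn up with earlier results of these data known, so its counts beside the shares of all genes are a description only. Whether these genes answer to AP-1 in these cells was not tested.

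Antibody constant region genes, whose switching needs Batf in mouse B cells, include 3 that were among the named genes. Genes of a list were named for having its largest changes, so falls in these 3 do not describe the list. Ighe, the constant region of IgE, had 5.76 RPKM in JQ1+, 52.2 in flavopiridol and 470.0 in DMSO, and fell with both drugs (-6.12 and -3.15). Ighg3 (-1.43 and -1.77) and Ighg1 (-1.14 and -1.54) also fell with both. Over all tested genes 5.29% fell with JQ1+ and 2.88% with flavopiridol. In the same libraries Batf stood at 278, 579 and 405 RPKM, within 2-fold of DMSO both times. It was on the lower side of DMSO with JQ1+ and on the higher side with flavopiridol. Whether Batf has a part in the levels of these genes was not tested.

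The genes most like Batf3 in their pair of changes against DMSO were sought among the 8796 named protein-coding genes whose mean reached 5 RPKM, over the 3 libraries. The nearest were Ly6c2 (-3.80 with JQ1+ and -2.47 with flavopiridol), Ifi27l2a (-3.73 and -2.46) and Ifi27l2b (-3.49 and -2.25), at Euclidean distances of 0.24, 0.25 and 0.34. The Ifi27l2 genes are close copies of each other, and Ly6c2 has a close copy too, so the split of reads among such copies is uncertain. Nearest to Atf3 were Daxx (-1.41 and -0.98), Nlrc5 (-1.38 and -0.98) and Parp9 (-1.52 and -1.03), at distances of 0.05, 0.07 and 0.07. A likeness over 3 libraries that share 1 control is a description.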

How the data were processed

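The deposited tables, 1 per library, list 33700 genes. Their count column, named so per the file headers, holds whole numbers that were not normalised. Their RPKM column, likewise per the file headers, holds values the authors had divided by gene length and a library total. RNA was extracted with Trizol and depleted of ribosomal RNA with Ribo-Zero, per the labels' protocols. The submitters' processing notes name build mm9; the aligner, counting program and annotation, or any use of strand, is not given in the sources used here. Promoter sequences and gene order come from RefSeq on GRCm38.p6, a later build, and were joined by symbol.

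Tables were joined by identifier, and for the 94 symbols that occur more than once the highest row by mean RPKM was used. The total behind the RPKM was worked out with exon lengths from GENCODE M21 together with each count and RPKM: 44.0% to 44.3% of genes with at least 1000 counts matched within 0.1%. Counts summed to 2.72, 2.92 and 2.84 times that total in JQ1+, flavopiridol and DMSO, and counts of 2 were more frequent than counts of 1 in every library, so counts were not taken as independent fragments. Counts were divided by 2.83 before intervals: exact Poisson for levels and exact conditional binomial for ratios. With 1 library per group no test was made. Calculations used Python 3.11.15, pandas 2.3.3, numpy 2.4.6 and scipy 1.17.1. The intervals and calls were tested on simulated independent counts of genes with many counts. That leaves counts that are not independent, and low counts such as those of Fosl1, unchecked.

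The genes and all lists were chosen with earlier results of these data known. Named genes were the 10 members, up to 4 members of each of 7 lists with the largest change against DMSO, and the 3 genes nearest to each member past 2-fold with a mean of at least 5 RPKM. Flanking and overlapping genes, and genes counted by name beyond that rule, were chosen after values were seen. Some genes of the B cell marker and class switching lists, and the sums and counts over these lists, are not reported here. The alternatives were pseudocounts of 0.1 and 5, no minimum level, a minimum mean of 5 RPKM, rescaling by the median of ratios, CPM from the counts, and rescaling to protein-coding counts.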

Additional observations from a re-analysis of the deposited data

How the results depend on the processing

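Of the 30 changes of single genes, 24 kept their side of the 2-fold threshold under each of the 7 alternatives that gave a value, and no called change reversed. Batf3 fell with both drugs under all of them, from -4.18 to -2.93 with JQ1+ and from -2.36 to -1.92 with flavopiridol, and Atf3 fell with JQ1+ under all. Of 204 alternative values, 34 left the counting interval of the value as reported, 19 to a larger size and 15 to a smaller one. Fosl1 and Fosl2 have no value with a minimum mean of 5 RPKM. Calls were lost with a pseudocount of 5 for Fosl2 with JQ1+ (-0.72), Fosl2 between the drugs (-0.89) and Atf3 with flavopiridol (-0.93). The last left 1 of the 10 lower with flavopiridol. For Fosl2 with JQ1+ the loss was fixed in advance by its low level in DMSO. Fosl1 between the drugs passed the threshold with 0.1 (-1.03). Rescaling by the median of ratios or to protein-coding counts (1.01) put Fos past the threshold with JQ1+, so that 1 of the 10 rose under each, where none did as deposited. Batf between the drugs was within 2-fold after both (-0.84 and -0.89) and in CPM (-0.95). The cause of these shifts beyond the construction of each alternative was not tested.

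Counts over all genes, reported as 293 higher and 782 lower with JQ1+, 525 and 426 with flavopiridol, and 304 and 1016 between the drugs, moved more. With a pseudocount of 0.1, 503 were higher with JQ1+ and 867 with flavopiridol. With 5, the counts were 84 and 363, 139 and 183, and 110 and 329. With a minimum mean of 5 RPKM, which tests fewer genes, they were 138 and 471, 229 and 256, and 172 and 566. In CPM, 165 were higher with JQ1+ and 244 with flavopiridol, and 190 were higher and 577 lower between the drugs; rescaling by the median of ratios left 661 lower between the drugs. The share of lower genes among those called was 72.7% with JQ1+, 44.8% with flavopiridol and 77.0% between the drugs as deposited, and 66.0%, 57.0% and 59.2% after the median of ratios. Of 294 alternative counts over the other lists, 17 moved by over 1.5 times, 8 up and 9 down. No paired analysis was possible because each group has 1 library. Depth limits Fosl1, with 35 to 68 counts, and Batf3 in JQ1+, with 40.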
